A study of Homo sapiens with 12 samples.

Results

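FAT1 knockdown (KD) in HN30, an established oral squamous cell carcinoma (OSCC) cell line, was described from 6 of the 12 RNA-seq libraries of the series. The 6 HN30 libraries were taken by cell line label, and within them the genes described were those whose 4 KD libraries all lay on one side of both negative control (NC) libraries, which held for 2889 of the 13602 genes tested. The other 6 libraries, from the OSCC line HN6, had no part in the rule of the one-sided genes and were used for comparison with HN30, although some of the genes named were picked with HN6 in use: the study's qRT-PCR genes and those named for the interaction of cell line and KD. HN30 cells were transfected with a scrambled siRNA (NC), with siFAT1-1 or with siFAT1-2, and RNA was taken 24 h later. Each of these 3 groups held 2 libraries, made at separate times that the labels number 1 and 2 and that are called replicate 1 and replicate 2 here. The sample titles name the KD groups as hairpins and their other labels as siRNAs, and the transfection described is that of siRNAs. All groups carried the same lipid transfection, and HN30 is a single line, so the replicates measure the spread between transfections of that line and not between tumours. In bulk RNA, fewer cells in a phase of the cell cycle and less RNA per cell cannot be told apart.

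FAT1 encodes a giant atypical cadherin of epithelial cells, known for parts in cell adhesion, polarity, actin organisation and growth control, and it is often mutated in squamous carcinomas. The gene lists described first belong to the proliferation programme. In dividing cells the E2F transcription factors drive genes for DNA replication at the start of S phase, and the B-MYB and FOXM1 factors drive mitotic genes later in the cycle. Inhibitors of cyclin-dependent kinases such as p21, the product of CDKN1A, hold the retinoblastoma family proteins active, which keeps E2F targets low.

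Levels are given as CPM, the counts of a gene as a proportion of all counts in its library, after TMM scaling, a scaling that corrects for differences in library composition. The 2 NC libraries held 35141255 and 38052379 counts, the siFAT1-1 libraries 26430049 and 32243692, and the siFAT1-2 libraries 32637702 and 32485884. The correlation of log2 CPM across genes between replicates was 0.968 for NC, 0.989 for siFAT1-1 and 0.964 for siFAT1-2, and the siFAT1-2 libraries stood apart from each other in proliferation genes, so results are also given without siFAT1-2 replicate 2.

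FAT1 stood at 14.1 and 15.2 CPM in the NC libraries, at 4.98 and 6.45 CPM with siFAT1-1, and at 11.1 and 7.97 CPM with siFAT1-2. All 4 KD libraries were therefore below both NC libraries, and siFAT1-1 left 39.0% of the NC mean while siFAT1-2 left 65.1%. The log2 fold change of FAT1 was -0.94 ± 0.35 (SE), at an adjusted p of 0.492 (quasi-likelihood test of edgeR, Benjamini-Hochberg adjustment). With one library left out it ran from -1.18, without siFAT1-2 replicate 1, to -0.77, without siFAT1-1 replicate 1. At -0.94 FAT1 fell short of the log2 fold change of 1 that the thresholds of the study, given below, require. The siRNAs themselves differed in FAT1 by -0.74 on the log2 scale (adjusted p = 0.122). In HN6, where KD left 23.0% of the NC mean, the fold change was -2.11. Of the other large FAT cadherins, FAT2 ran from 40.6 to 189 CPM with overlapping groups, although each KD library lay below the NC library of its own time. FAT4 stayed between 0.535 and 1.44 CPM, and FAT3 was at or below 0.293 CPM.

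The epithelial label was checked against marker genes. Of 8 squamous epithelial markers 7 passed the filter on low counts, with KRT5 at 590 to 762 CPM, CDH1 at 343 to 434 CPM and TP63 at 232 to 261 CPM in the NC libraries, while KRT14 was almost absent, at 0.0766 CPM or less. Of the fibroblast markers COL1A1 alone exceeded 5 CPM, COL1A2, COL3A1 and THY1 were at 0 in most libraries, and LUM reached 2.41 CPM in siFAT1-2 replicate 1. Of the leukocyte markers PTPRC was at 0 in 5 of the 6 libraries, but the myeloid markers CD68 and CD14 were found in every library, at 16.5 to 32.2 and 4.73 to 15.4 CPM, without separation of KD from NC. Of the 6 endothelial markers PECAM1 was at 0 in 5 of 6 libraries, and CDH5 and VWF passed the filter. The summed level of the 6 endothelial markers was 3.60 and 3.05 CPM with siFAT1-1 against 0.849 and 1.02 CPM in NC and 0.267 and 0.599 CPM with siFAT1-2. CDH5 differed between the siRNAs (1.84 and 1.56 CPM against 0.0892 and 0.120 CPM, adjusted p = 0.0237 in edgeR), and the part of these markers in other differences between the siRNAs was not tested.

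In the 4 KD libraries 1345 genes were higher than in both NC libraries, 9.89% of the genes tested, and 1544 were lower, 11.4% of them. These genes were chosen by that pattern, so the counts are a description and carry no test. The median log2 fold change was 0.66 among the higher genes and -0.63 among the lower ones. The separation was often narrow: the gap between the nearest KD and NC libraries was under 0.1 on the log2 scale for 447 higher and 508 lower genes, and at least 0.5 for 213 and 181. At the edge of the rule the order was decided by log2 CPM with its prior count, which can differ from the order of the printed CPM in the last digit. There stood HTATIP2, whose siFAT1-2 replicate 2 and NC replicate 2 both read 65.7 CPM and which was just counted as higher. TRAF6 was just not counted, with 19.0 CPM in both of those libraries. On the lower side B4GAT1 was just inside, at 63.3 CPM in its highest KD library against 63.6 CPM in its lowest NC library. GPATCH2 was just outside, with a KD library at 14.9 CPM and an NC library at 15.0 CPM.

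Judged by the thresholds of the study, a P under 0.05 before adjustment together with a log2 fold change beyond 1 in size, 284 genes were higher (2.09% of those tested) and 260 were lower (1.91%) in a fit of 4 KD against 2 NC libraries. These genes are called DEGs here, and 268 and 232 of them also had all 4 KD libraries on one side. By edgeR's quasi-likelihood test 0 genes had a Benjamini-Hochberg adjusted p under 0.05, the lowest being 0.259, while 1265 had an unadjusted P under 0.05. At the same adjusted threshold limma-voom called 0 genes and DESeq2 called 201. When siFAT1-1, siFAT1-2 and NC were fitted as 3 groups, which takes the difference between the siRNAs out of the error, edgeR called 44 genes, 15 higher and 29 lower. Leaving out NC replicate 1 brought the DEGs down to 187 higher and 139 lower, leaving out NC replicate 2 brought them to 527 and 273, and leaving out siFAT1-2 replicate 2 to 322 and 449.

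Genes of DNA replication, the cell cycle and DNA repair made up the clearest group on the lower side. Of 251 genes tested in 10 lists of such genes, 115 had all 4 KD libraries below both NC libraries and 0 had them above, beside 11.4% and 9.89% of all genes. The separation was mostly narrow in these lists too. With a gap of at least 0.5 on the log2 scale 17 of the 251 were lower and 0 higher. At the same gap, 181 of all 13602 genes tested were lower and 213 higher. The 17 included 6 kinetochore and centromere, 4 chromatin maintenance and 2 MCM genes but 0 of 29 replication fork genes. 71 of the 251 were DEGs in the downward direction and 0 in the upward one, and their median log2 fold change was -0.87 against 0.03 for all genes tested. The largest fold change among the lower genes named was that of UHRF1, which recruits the maintenance DNA methyltransferase to newly replicated DNA. UHRF1 was at 227 and 153 CPM in the NC libraries, at 34.1 and 50.6 CPM with siFAT1-1, and at 34.7 and 42.3 CPM with siFAT1-2. The KD libraries lay close together and far from NC, at a log2 fold change of -2.23 ± 0.25 (SE; adjusted p = 0.259 in edgeR). The lower share of these lists is seen in the bar plot of genes on one side.

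**Figure D1:**
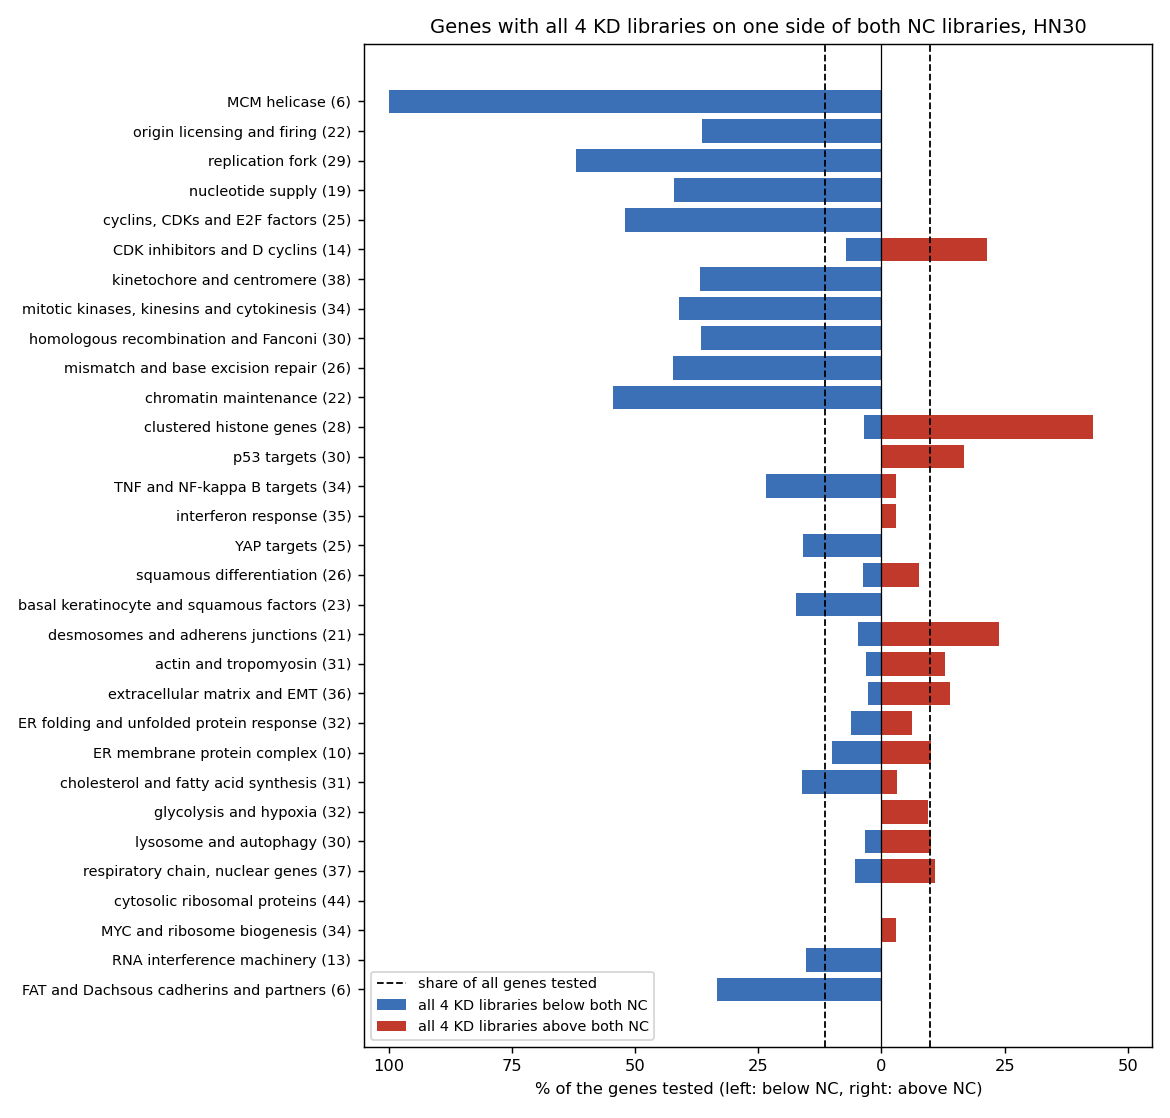
Share of the genes tested in each list (number in parentheses) whose 4 KD libraries all lay below (blue, leftwards) or above (red, rightwards) both NC libraries in HN30; dashed lines give the shares of all genes tested, 11.4% and 9.89%. All 6 MCM helicase genes lay below NC, and 12 of 28 clustered histone genes lay above.

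Promoter sequences of genes from these lists are shown because replication genes and mitotic genes are known to carry different short elements near their starts. The windows are those of RefSeq on GRCh38.p14, 250 bases before to 50 bases after the gene start, and 11027 of the 13602 genes had one. E2F sites were searched as TTTCCCGC, TTTGGCGC and TTTCGCGC on both strands, where the last overlaps its own reverse complement. The cell cycle genes homology region (CHR) was searched as TTTGAA and TTCGAA on both strands. The windows shown were picked because they hold one of the motifs. In the 4 windows below, of 3 replication genes and UHRF1, the capitals mark E2F letters; the window of CDC45, a replication gene named below, held none.
UHRF1 (chr19:4909251-4909550, plus strand): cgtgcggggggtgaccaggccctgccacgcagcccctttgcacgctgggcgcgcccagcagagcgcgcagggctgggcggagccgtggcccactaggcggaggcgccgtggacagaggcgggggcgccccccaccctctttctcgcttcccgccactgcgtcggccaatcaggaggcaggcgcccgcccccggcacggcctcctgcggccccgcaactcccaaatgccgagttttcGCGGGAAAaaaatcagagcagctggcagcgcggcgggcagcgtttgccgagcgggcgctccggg
MCM2 (chr3:127598161-127598460, plus strand): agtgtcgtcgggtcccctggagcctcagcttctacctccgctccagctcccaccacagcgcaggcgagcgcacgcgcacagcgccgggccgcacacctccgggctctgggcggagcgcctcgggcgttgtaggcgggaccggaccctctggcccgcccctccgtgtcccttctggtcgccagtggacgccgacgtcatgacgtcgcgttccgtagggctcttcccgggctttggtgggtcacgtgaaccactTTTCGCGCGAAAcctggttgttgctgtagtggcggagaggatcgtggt
MCM7 (chr7:100101348-100101647, minus strand): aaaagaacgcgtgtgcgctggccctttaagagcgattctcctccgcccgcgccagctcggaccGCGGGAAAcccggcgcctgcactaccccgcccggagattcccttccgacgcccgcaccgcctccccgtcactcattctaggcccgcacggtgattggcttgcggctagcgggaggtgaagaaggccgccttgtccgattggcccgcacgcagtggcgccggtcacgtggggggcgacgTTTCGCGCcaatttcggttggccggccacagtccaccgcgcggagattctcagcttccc
LIG1 (chr19:48170295-48170594, minus strand): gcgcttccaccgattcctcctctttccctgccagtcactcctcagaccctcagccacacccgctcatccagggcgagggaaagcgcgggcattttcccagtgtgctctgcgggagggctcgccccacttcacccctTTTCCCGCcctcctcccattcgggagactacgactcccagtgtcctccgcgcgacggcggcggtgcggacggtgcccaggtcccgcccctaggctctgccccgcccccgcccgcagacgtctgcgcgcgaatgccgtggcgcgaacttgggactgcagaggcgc
In the 2 windows of mitotic genes below the capitals mark CHR letters.
KIF23 (chr15:69414099-69414398, plus strand): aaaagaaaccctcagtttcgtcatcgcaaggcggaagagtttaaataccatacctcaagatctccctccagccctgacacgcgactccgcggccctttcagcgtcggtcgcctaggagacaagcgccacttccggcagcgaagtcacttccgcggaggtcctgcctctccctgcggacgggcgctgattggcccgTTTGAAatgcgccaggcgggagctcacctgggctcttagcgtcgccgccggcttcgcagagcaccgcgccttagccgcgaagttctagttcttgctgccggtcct
SKA3 (chr13:21176503-21176802, minus strand): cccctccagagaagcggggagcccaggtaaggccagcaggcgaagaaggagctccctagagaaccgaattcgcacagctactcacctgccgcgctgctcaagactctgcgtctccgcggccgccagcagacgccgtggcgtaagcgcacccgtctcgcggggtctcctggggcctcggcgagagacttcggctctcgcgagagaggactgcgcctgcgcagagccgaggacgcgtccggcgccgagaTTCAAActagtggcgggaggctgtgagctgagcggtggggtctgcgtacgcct
E2F letters stood in 4.45% of all windows (491 of 11027), in 8.68% of those of the lower genes (110 of 1268) and in 2.76% of those of the higher genes (30 of 1089). Among the lists, all 4 MCM helicase windows and 8 of 25 replication fork windows held them, but 2 of 29 windows of mitotic kinases, kinesins and cytokinesis genes. CHR letters stood in 11.2% of all windows, in 23 of those 29 (79.3%), in 17 of 31 kinetochore and centromere windows, and in 1 of 25 replication fork windows. The clustered histone genes, which lay mostly above NC where they were on one side, held E2F letters in 6 of 25 windows, CHR letters in 8 and the CCAAT box in 22, so these letters were not limited to lists that were lower. The CCAAT box, CCAAT on either strand, stood in 36.5% of all windows and in 24 of the 29 mitotic ones. It stood in 42.1% of the windows of the lower genes and in 34.5% of those of the higher genes. The AP-1 letters TGACTCA stood in 3.27% of all windows, 3.12% of those of the higher genes and 2.05% of those of the lower genes. The windows of MYBL2 and CCNE1, both among the largest fold changes, held neither E2F nor CHR letters. A match is a match of letters and does not show that a factor was bound. The search used these exact letters only, so a window without them is not shown to lack a site.

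The MCM proteins form the helicase that is loaded at replication origins, and all 6 of their genes were lower in every KD library, or 5 of 6 with DESeq2 size factors or no normalization factors. MCM2 was at 445 and 266 CPM in the NC libraries, at 60.5 and 89.2 CPM with siFAT1-1 and at 136 and 191 CPM with siFAT1-2. Both siFAT1-1 libraries were thus lowest and the siFAT1-2 libraries intermediate. MCM5 was at 228 and 149 CPM in NC, at 39.6 and 61.4 CPM with siFAT1-1 and at 40.9 and 91.3 CPM with siFAT1-2. The 6 fold changes ran from -1.69 for MCM5 to -1.17 for MCM7 on the log2 scale, with a median of -1.53, and all 6 genes were DEGs. MCM3 was separated by the narrowest margin, its siFAT1-2 replicate 2 standing at 113.5 CPM against 114.1 CPM in NC replicate 2.

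Of 22 genes of origin licensing and firing 8 were lower on this pattern, 4 of them DEGs, and the median fold change of the list was -0.88. CDC45, a partner of the MCM helicase at the active fork, was at 46.4 and 35.3 CPM in NC, 5.71 and 7.85 CPM with siFAT1-1, and 11.5 and 26.8 CPM with siFAT1-2. Its siFAT1-2 libraries differed by more than the NC libraries did, and replicate 2 lay nearer to NC than to siFAT1-1. GINS3, a subunit of the same helicase complex, and DONSON, which helps to assemble it, had fold changes of -1.17 ± 0.40 and -0.99 ± 0.32 (SE), and DONSON became a DEG, at -1.02, with the time as a replicate block.

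At the replication fork 18 of 29 genes were lower in all 4 KD libraries, with a median of -0.97. LIG1, the ligase that joins Okazaki fragments, was at 83.5 and 67.8 CPM in NC, 18.0 and 22.9 CPM with siFAT1-1, and 20.7 and 47.9 CPM with siFAT1-2. ASF1B, a histone chaperone of replicating chromatin, and POLD3, a subunit of polymerase delta, followed the same order, with fold changes of -1.33 and -1.20. Genes of nucleotide supply moved less: 8 of 19 were lower, 1 was a DEG and the median was -0.37. In that list DTYMK, which makes the precursor of dTTP, went from 90.3 and 70.5 CPM in NC to between 27.5 and 60.4 CPM in the KD libraries.

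Among cyclins, CDKs and E2F factors 13 of 25 genes were lower and 10 were DEGs, with a median of -1.13. CCNE1, which encodes the cyclin E that drives entry into S phase, was at 28.7 and 12.2 CPM in NC, 3.45 and 3.47 CPM with siFAT1-1, and 7.55 and 3.24 CPM with siFAT1-2. The NC libraries were further from each other than NC replicate 2 was from the nearest KD library. MYBL2, the gene of B-MYB, was at 203 and 281 CPM in NC, 56.4 and 84.4 CPM with siFAT1-1 and 41.0 and 59.0 CPM with siFAT1-2, at a fold change of -2.01 ± 0.29 (SE; adjusted p = 0.359 in edgeR). For MYBL2 siFAT1-2 replicate 2 lay within the range of the siFAT1-1 libraries. E2F2, a transcriptional activator of S phase genes, had a fold change of -2.20 ± 0.72, and RBL1, which encodes the retinoblastoma relative p107, one of -1.16 ± 0.33.

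Mitotic genes were lower by a similar amount, but with one library apart. Of 34 mitotic kinases, kinesins and cytokinesis genes 14 were lower in all 4 KD libraries and 17 were DEGs, with a median of -1.08 and every member below 0 in the fit. KIF23, a kinesin of the central spindle, was at 102 and 159 CPM in NC, 49.7 and 54.8 CPM with siFAT1-1, and 34.1 and 65.7 CPM with siFAT1-2. Its partner RACGAP1 and the cytokinesis kinase CIT had fold changes of -1.28 ± 0.37 and -1.49 ± 0.47 (SE). Of 38 kinetochore and centromere genes 14 were lower and 13 were DEGs, with a median of -0.95. SPC24, a subunit of the NDC80 complex that binds microtubules, was at 24.3 and 23.3 CPM in NC, 7.36 and 6.68 CPM with siFAT1-1 and 5.79 and 10.9 CPM with siFAT1-2. KIF2C, a kinesin that depolymerises microtubules, was not separated: its KD libraries were at 29.96, 30.7, 20.6 and 88.9 CPM, the last being siFAT1-2 replicate 2, against 85.7 and 123 CPM in NC.

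Genes of homologous recombination and the Fanconi pathway held 11 lower genes of 30, with a median of -0.77, and mismatch and base excision repair 11 of 26, with a median of -0.31. MSH6, which recognises mismatches, was at 146 and 108 CPM in NC and between 55.4 and 83.5 CPM in the KD libraries. Among 22 genes of chromatin maintenance 12 were lower and 4 were DEGs. Besides UHRF1 these included SUV39H1, a methyltransferase of heterochromatin, which went from 34.6 and 27.8 CPM in NC to between 9.23 and 14.4 CPM, at a fold change of -1.50 ± 0.27 (SE).

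**Figure D2:**
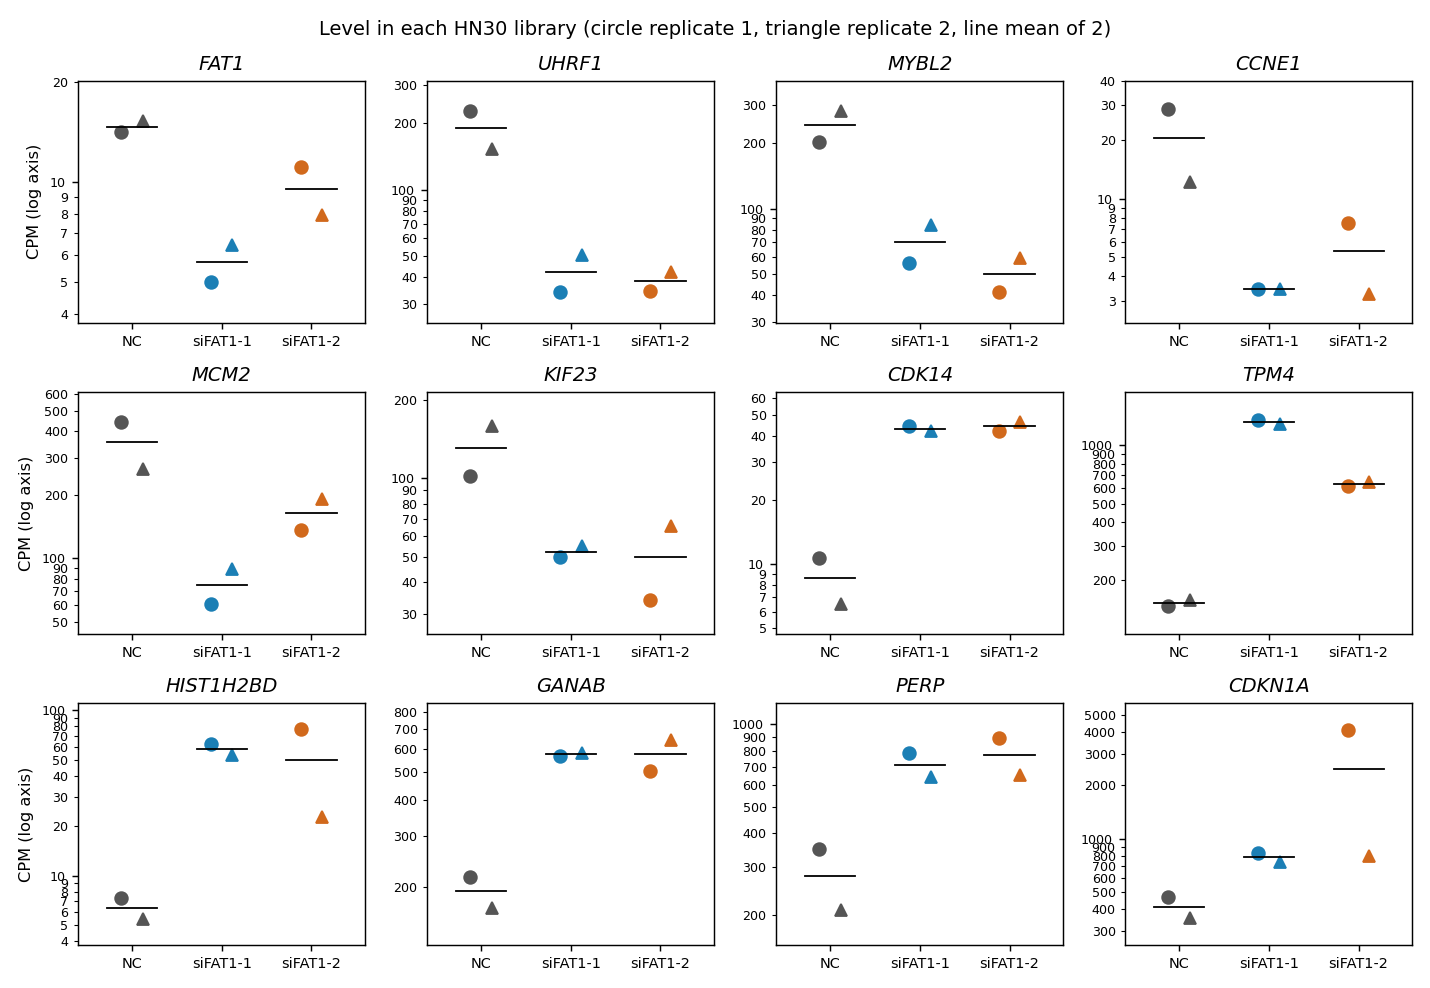
CPM (log axis, a scale of its own in each panel) of 12 genes in the 6 HN30 libraries; circles are replicate 1, triangles replicate 2 and lines the mean of 2. FAT1 and the proliferation genes lie below NC in all 4 KD libraries, and CDKN1A is at 4121 CPM in siFAT1-2 replicate 1 against 735 to 831 CPM in the other KD libraries.

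The DEG calls moved with the libraries used. Without NC replicate 1, which leaves 1 NC library, 2 of 6 MCM genes and 0 of 29 replication fork genes were DEGs, and without NC replicate 2 the DEGs were 1 of 34 mitotic and 4 of 38 kinetochore and centromere genes. Without siFAT1-2 replicate 2 the DEGs were 21 of 29 replication fork, 31 of 34 mitotic and 27 of 38 kinetochore and centromere genes. Among all genes tested 449 were then lower DEGs and 322 higher ones, against 260 and 284 with all 6 libraries. That library was picked from its values in these lists, so these counts are a description. The medians kept their sign, between -1.44 and -0.78 for the replication fork and between -1.43 and -0.78 for the mitotic list. Among the genes named, ALDH1A3, ASF1B, CDC45, CDKN1A, CDKN2B, COL1A1, E2F2, GINS3, IER3, KIF2C, LIG1, MCM2, MCM7, POLD3, RELB and SELPLG were no longer DEGs without NC replicate 1, and CDKN1A, CIT, KIF2C, RACGAP1, RBL1 and SELPLG were not without NC replicate 2. Fold changes without NC replicate 1 were -1.43 for CCNE1 and E2F2, -0.81 for ALDH1A3 and -0.59 for GINS3. CDKN1A was at 0.94 without siFAT1-2 replicate 1, and KIF2C at -1.94 without siFAT1-2 replicate 2.

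The KD libraries were not alike in the strength of these changes. Measured as the mean log2 CPM of a list relative to NC, the mitotic list was at -1.40 and -1.19 in the siFAT1-1 libraries, at -1.86 in siFAT1-2 replicate 1 and at -0.28 in siFAT1-2 replicate 2. The NC libraries themselves were at -0.33 and 0.33, so that siFAT1-2 replicate 2 lay within the NC range for this list, though below NC replicate 2, the NC library of its own time, at 0.33. It lay at -0.06 for origin licensing and at -0.19 for kinetochore genes, where the other KD libraries ran from -1.55 to -0.94 and from -1.40 to -1.17. For the MCM list it was at -0.71, below the lower NC library at -0.27, and for cyclins, CDKs and E2F factors at -0.44 against -0.10. Of the 1544 lower genes, 653 (42.3%) had siFAT1-2 replicate 2 as the KD library nearest to NC, and of the 1345 higher genes 428 (31.8%). These genes were chosen with the same libraries, so the shares are a description. Without siFAT1-2 replicate 2, 205 of the 251 replication, mitosis and repair genes lay below both NC libraries and 0 above, beside 15.9% of all genes below and 13.6% above. That library was picked from its values in these lists, so the rise from 115 is a description. Of the mitotic list, 32 genes were lower without it, and 14 without any one of the other KD libraries. With each KD library set against the NC library of the same time, 171 of the 251 (68.1%) were lower in all 4 and 2 higher, beside 16.4% and 14.7% of all genes. Among them were 31 of 34 mitotic and 30 of 38 kinetochore and centromere genes. FAT1 itself was at 7.97 CPM in siFAT1-2 replicate 2 and 11.1 CPM in the other siFAT1-2 library. The relation of FAT1 level to the size of these changes was not tested.

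**Figure D3:**
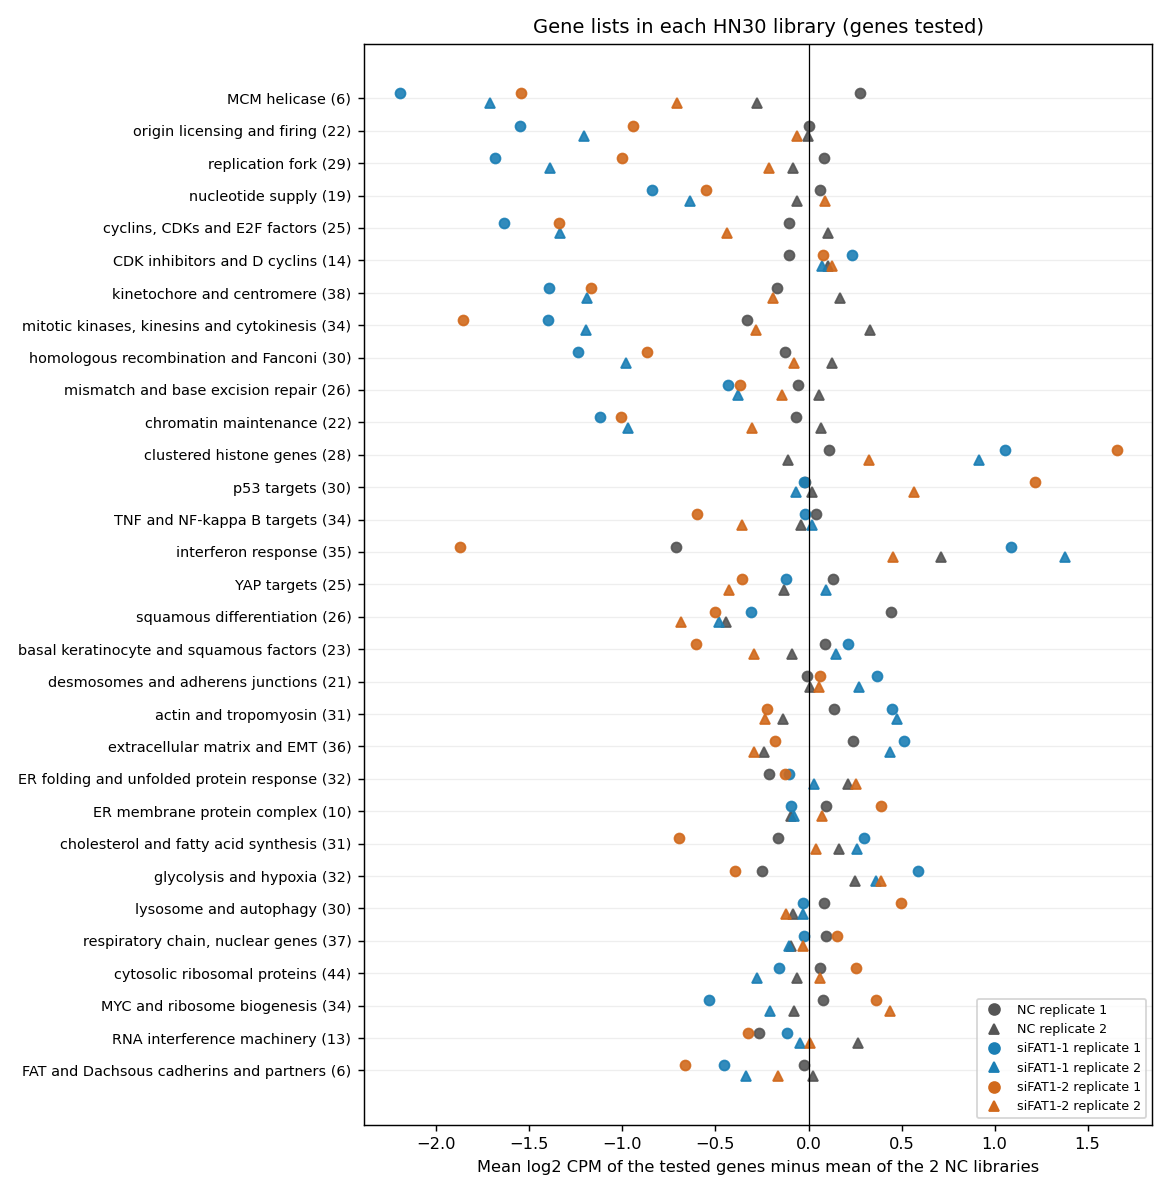
Mean log2 CPM of the genes tested in each list (number in parentheses) in each HN30 library, relative to the mean of the 2 NC libraries; grey is NC, blue siFAT1-1, orange siFAT1-2, circles replicate 1 and triangles replicate 2. In the mitotic list siFAT1-2 replicate 2 (-0.28) lies between the NC libraries (-0.33 and 0.33), and in the interferon list the NC libraries are 0.71 either side of 0.

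Clustered histone genes went the other way from the replication genes. Of 28 tested, 12 were higher in all 4 KD libraries, 9 were DEGs in the upward direction and 0 in the downward one, and the median fold change was 1.33. HIST1H2BD, which had the largest fold change of the named genes, was at 7.32 and 5.45 CPM in NC, 62.7 and 53.3 CPM with siFAT1-1, and 77.2 and 22.5 CPM with siFAT1-2. HIST1H1C, a linker histone gene, was at 13.4 and 14.1 CPM in NC and between 26.8 and 57.8 CPM in the KD libraries. These genes are short and alike, many stood under 2 CPM, and most of their transcripts in cycling cells lack the poly(A) tail by which the libraries were selected, so the values count polyadenylated histone RNA only. HIST2H2AC was lower, at 0.966 and 1.17 CPM in NC and at most 0.929 CPM in the KD libraries.

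Inhibitors of the cell cycle showed no common shift. Of 14 CDK inhibitor and D cyclin genes 3 were higher, 1 was lower and the median was 0.02. CDKN1A was at 468 and 354 CPM in NC, 831 and 735 CPM with siFAT1-1, and 4121 and 802 CPM with siFAT1-2. All 4 KD libraries were above NC, but siFAT1-2 replicate 1 was above the sum of the other 5 libraries. Its fold change of 1.98 ± 0.81 (SE) passed the DEG thresholds in edgeR but not in limma-voom or DESeq2. CDKN2B, which encodes the inhibitor p15, was at 5.86 and 11.96 CPM in NC, 19.2 and 15.2 CPM with siFAT1-1 and 57.0 and 28.05 CPM with siFAT1-2. CCNG2, an unusual cyclin of non-dividing cells, had a fold change of 0.94 ± 0.33 (SE). Of 30 p53 targets 5 were higher, beside 9.89% of all genes, and 0 lower, with a median of 0.76. This median was 0.19 without siFAT1-2 replicate 1 and 0.38 in limma-voom, and the mean of the list was at -0.02 and -0.07 in the siFAT1-1 libraries and at 1.22 and 0.57 in the siFAT1-2 libraries. PERP, a p53 target that is also a desmosome protein, was higher with both siRNAs, at 349 and 210 CPM in NC, 783 and 639 CPM with siFAT1-1, and 887 and 652 CPM with siFAT1-2.

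The genes that were higher with both siRNAs by similar amounts came from several functions. CDK14, a cyclin-dependent kinase linked to Wnt signalling, was at 10.7 and 6.51 CPM in NC and at 44.3, 42.2, 42.1 and 46.4 CPM in the KD libraries. It had the smallest P of the higher genes, at a fold change of 2.35 ± 0.28 (SE; adjusted p = 0.259 in edgeR). HABP4, which encodes an RNA-binding protein, was at 2.52 and 2.61 CPM in NC and between 10.7 and 16.6 CPM in the KD libraries. GANAB, the catalytic subunit of the glucosidase that trims N-glycans in the ER, was at 218 and 170 CPM in NC, 567 and 581 CPM with siFAT1-1 and 503 and 642 CPM with siFAT1-2. ATF3, a stress-induced transcription factor, was at 17.0 and 17.8 CPM in NC and between 47.7 and 77.1 CPM in the KD libraries. By contrast SELPLG was higher mainly with siFAT1-1, at 23.9 and 18.7 CPM against 2.64 and 2.49 CPM with siFAT1-2 and 2.02 and 1.82 CPM in NC, and it was no longer a DEG with the time as a replicate block (2.63 against 2.64).

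The ER lists as wholes did not follow GANAB. Of 32 genes of ER folding and the unfolded protein response 2 were higher and 2 lower, with a median of -0.01, and of 10 subunits of the ER membrane protein complex 1 was higher and 1 lower. EMC6, the higher subunit, was at 29.1 and 19.1 CPM in NC and between 53.1 and 77.6 CPM in the KD libraries. EMC4, the lower one, was at 74.4 and 59.9 CPM in NC and between 31.3 and 49.9 CPM in the KD libraries.

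Among actin and tropomyosin genes 4 of 31 were higher and 1 lower, beside 9.89% and 11.4% of all genes, and the median was -0.00. TPM4, a tropomyosin that stabilises actin filaments, was at 148 and 158 CPM in NC, 1352 and 1290 CPM with siFAT1-1, and 615 and 644 CPM with siFAT1-2. Its 3 groups did not overlap, and its fold change was 2.67 ± 0.43 (SE). Of 36 extracellular matrix and EMT genes 5 were higher and 1 lower, so neither list stood far above the background on the higher side, and the genes named are single genes. COL5A2, a fibrillar collagen chain, was at 0.791 and 1.22 CPM in NC and between 5.40 and 13.9 CPM in the KD libraries. COL1A1, which was also on the fibroblast marker list, was at 11.5 and 20.8 CPM in NC and between 29.8 and 47.6 CPM in the KD libraries, while COL1A2 and COL3A1 were at or below 0.0766 CPM in every library. Of the other 7 fibroblast markers only PDGFRB and, in siFAT1-2 replicate 1, LUM reached 1 CPM. The summed level of the 8 markers, of which COL1A1 was the most abundant, was 13.4 and 22.6 CPM in NC, 51.3 and 42.4 CPM with siFAT1-1 and 39.8 and 32.9 CPM with siFAT1-2, and its part in the matrix genes was not tested. Of 21 desmosome and adherens junction genes 5 were higher and 1 lower, among them DSC2, a desmosomal cadherin, with a fold change of 0.90 ± 0.27 (SE).

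TNF and NF-kappa B targets held 8 lower genes and 1 higher gene of 34, 3 and 1 of them DEGs, with a median of -0.06. CD83, a surface protein of activated immune cells that these carcinoma cells also expressed, was at 24.3 and 14.5 CPM in NC, 3.60 and 4.51 CPM with siFAT1-1, and 4.37 and 7.61 CPM with siFAT1-2. RELB, an NF-kappa B subunit, was at 50.3 and 21.8 CPM in NC and between 11.7 and 21.3 CPM in the KD libraries, so that the separation was narrow beside the spread of NC, and with the time as a replicate block it was no longer a DEG (-0.94 against -1.03), nor was it without NC replicate 1 (-0.28). IER3, an early response gene, was higher, at 138 and 208 CPM in NC and between 265 and 517 CPM in the KD libraries. Of 25 YAP targets 4 were lower and 0 higher, near the 11.4% of all genes that were lower, 0 were DEGs, and the named LATS2, AJUBA and CRIM1 had fold changes from -0.60 to -0.45. Of 23 basal keratinocyte and squamous factors 4 were lower, likewise near that share, including EGFR, at 1125 and 1227 CPM in NC and between 687 and 989 CPM in the KD libraries. ALDH1A3, which oxidises retinal, went from 3194 and 1095 CPM in NC to between 373 and 776 CPM, with NC libraries nearly 3 times apart.

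The lists of metabolism and protein synthesis showed little common change, most of their counts lying near or under the 9.89% higher and 11.4% lower of all genes. Of 44 cytosolic ribosomal protein genes 0 were on one side, and the fold changes ran from -0.22 to 0.21. Of 31 genes of cholesterol and fatty acid synthesis 5 were lower and 1 higher, led by the desaturase gene FADS1, at 125 and 132 CPM in NC and between 35.0 and 68.9 CPM in the KD libraries. Glycolysis and hypoxia held 3 higher genes of 32, lysosome and autophagy 3 higher and 1 lower of 30, the respiratory chain 4 and 2 of 37, and squamous differentiation 2 and 1 of 26. The median fold change of squamous differentiation was -0.42. Without NC replicate 2, which leaves 1 NC library, 14 of its 26 genes were lower and 3 higher. That stood beside 3128 lower and 3192 higher of all 13602 genes tested. Without NC replicate 1 this list held 2 lower and 5 higher genes, beside 2817 and 2443 of all genes. RNA interference machinery held 2 lower genes of 13, DGCR8 and PRKRA, at fold changes of -0.48 and -0.20. Without NC replicate 1, which leaves 1 NC library, 10 of the 13 were lower and 1 higher, beside the same 2817 and 2443. Without NC replicate 2 the list held 2 lower and 2 higher genes, beside 3128 and 3192. Interferon response genes held 1 higher gene of 35 and 0 DEGs. Their list mean was -0.71 and 0.71 in the NC libraries, 1.09 and 1.38 with siFAT1-1, and -1.87 and 0.45 with siFAT1-2, so NC and KD overlapped. Their median fold change was 0.53, and it ran from 0.0086 to 1.09 with one library left out. Without siFAT1-2 replicate 1, 12 of the 35 were higher and 0 lower, beside 1910 and 2029 of all 13602 genes tested. With any other library left out 1 to 3 of the 35 were higher. The libraries left out in these 3 lists were picked from their values, so the counts are a description.

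The 2 siRNAs were compared with each other. By edgeR's quasi-likelihood test on the 3 groups 2236 genes had a Benjamini-Hochberg adjusted p under 0.05, 1120 of them higher with siFAT1-1 (8.23% of those tested) and 1116 lower (8.2%). The choice of genes on one side used the same KD libraries, so their share of these calls is not given. The siFAT1-1 libraries were the closest to each other, with a median SD of 0.105 on the log2 scale against 0.233 for NC and 0.254 for siFAT1-2. The count moved with the libraries used: without siFAT1-1 replicate 1, or without replicate 2, 1 gene was called, while without siFAT1-2 replicate 1 or 2 the calls were 1107 and 2946. With either siFAT1-1 library left out, the lone library was taken to vary as the other groups did.

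**Figure D4:**
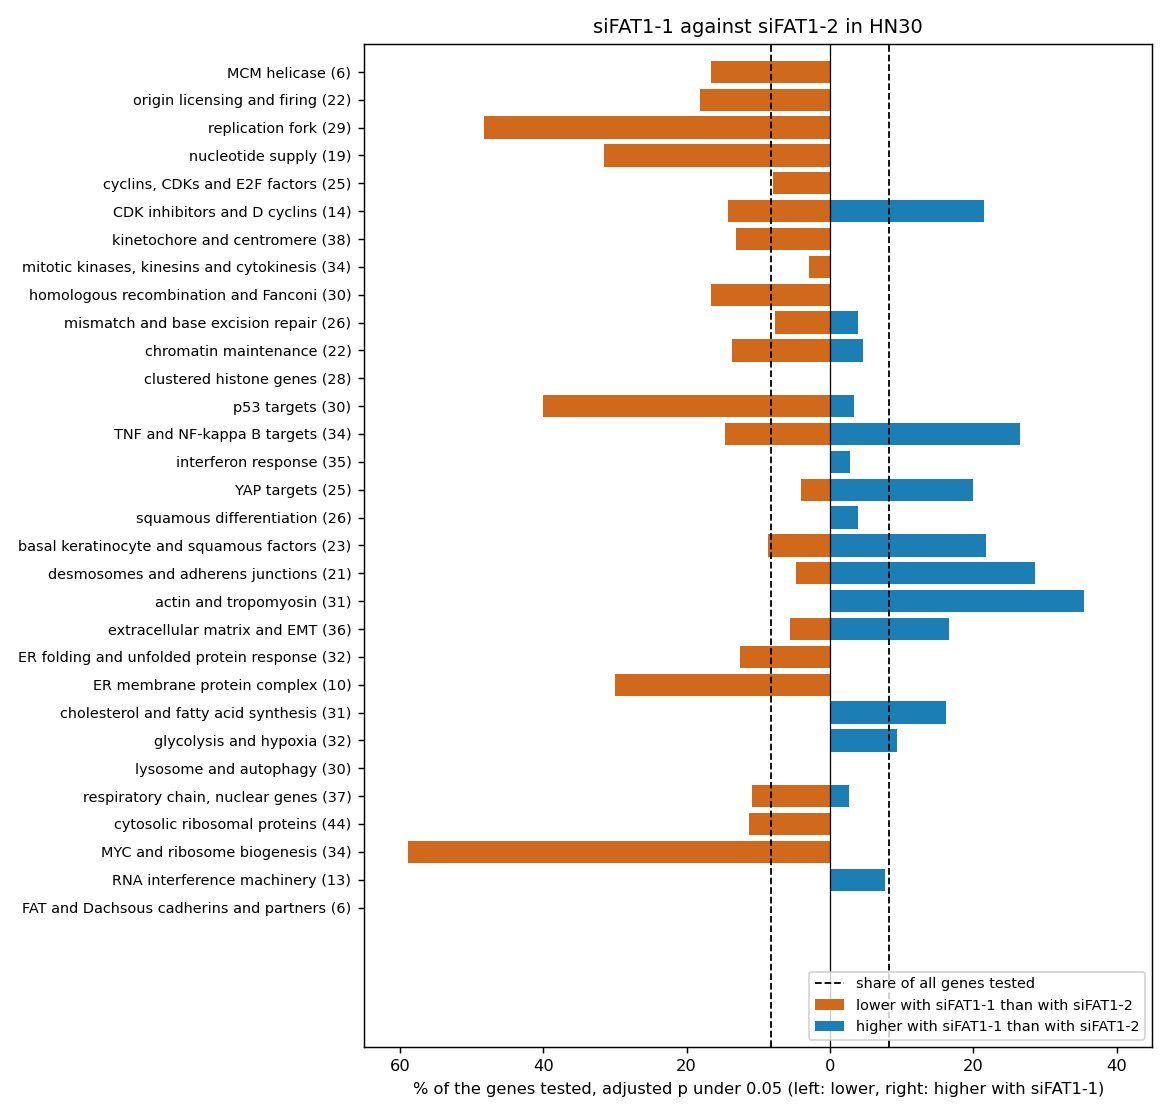
Share of the genes tested in each list (number in parentheses) that differed between siFAT1-1 and siFAT1-2 at an adjusted p under 0.05 in edgeR, lower (orange, leftwards) or higher (blue, rightwards) with siFAT1-1; dashed lines give 8.2% and 8.23%, the shares of all genes tested. Apart from the marker lists, MYC and ribosome biogenesis genes (20 of 34) lie furthest to the left, in the fit without a replicate block. Actin and tropomyosin genes (11 of 31) lie furthest to the right in that fit. With the block 28 of 35 interferon response genes were higher with siFAT1-1, against 1 of 35 without it. Their median difference was 0.67 without siFAT1-2 replicate 1 and 2.78 without siFAT1-2 replicate 2.

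Of 34 MYC and ribosome biogenesis genes 20 were lower with siFAT1-1 and 0 higher, and with the time as a replicate block 22 were lower. Fewer passed with any one KD library left out. The median difference of the list was -0.80, and it ran from -0.98 to -0.64 with one library left out. Interferon response genes were the list that the block changed most, from 1 of 35 higher with siFAT1-1 to 28 of 35. Their median difference was 1.33 without the block and 1.81 with it. It was 0.67 without siFAT1-2 replicate 1 and 2.78 without siFAT1-2 replicate 2, each of which leaves 1 siFAT1-2 library. ODC1, the first enzyme of polyamine synthesis, was at 121 and 112 CPM in NC, 45.9 and 61.7 CPM with siFAT1-1 and 312 and 264 CPM with siFAT1-2. The siRNAs thus lay on opposite sides of NC, at a difference of -2.42 ± 0.21 (SE; adjusted p = 0.00719 in edgeR). Nucleolin, NCL, was at 437 and 533 CPM with siFAT1-1 and 982 and 971 CPM with siFAT1-2, beside 885 and 832 CPM in NC. At the replication fork 14 of 29 genes were lower with siFAT1-1 and 0 higher, but 7 lower and 1 higher without siFAT1-2 replicate 2 and 8 lower in limma-voom. The 14 included TIMELESS, a fork protection factor, at 97.8 and 66.5 CPM in NC, 12.6 and 18.6 CPM with siFAT1-1 and 45.5 and 64.2 CPM with siFAT1-2. ODC1, NCL and TIMELESS, like the genes of the next paragraph, were picked after their values were seen, from the genes past the adjusted threshold in their lists.

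Of 30 p53 targets 12 were lower and 1 higher with siFAT1-1. GDF15, a secreted stress cytokine, was at 21.2 and 19.3 CPM with siFAT1-1 and 641 and 152 CPM with siFAT1-2, beside 22.1 and 47.6 CPM in NC. Its siFAT1-1 libraries lay below both NC libraries, near NC replicate 1, and its siFAT1-2 libraries lay above both. The difference between the siRNAs was -4.29 ± 0.72 (SE, adjusted p = 0.0154 in edgeR). Actin and tropomyosin genes went the other way, with 11 of 31 higher with siFAT1-1 and 0 lower. FLNA, a crosslinker of actin filaments, was at 1968 and 1951 CPM in NC, 2998 and 3527 CPM with siFAT1-1, and 863 and 1380 CPM with siFAT1-2. For FLNA siFAT1-1 was thus above NC and siFAT1-2 below it. Squamous epithelial markers also differed between the siRNAs, with 4 of 7 higher and 1 lower with siFAT1-1: KRT5 was at 1256 and 1175 CPM with siFAT1-1 and at 93.4 and 394 CPM with siFAT1-2, while TP63 was at 128 and 108 CPM against 242 and 283 CPM. By the rule of smallest P, the genes named for this contrast were NCAN, BTBD2 and KIF26A, and NCAN stood at 33.9 and 43.3 CPM with siFAT1-1 and 0.327 and 0.210 CPM with siFAT1-2.

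HN6 offered libraries that had no part in finding the genes on one side. Of the 1345 higher genes 1277 were tested in HN6, where 1060 (83.0%) had a positive fold change of KD against NC, beside 52.2% of all genes tested there. Of these 1277, 108 (8.46%) passed the DEG thresholds in the same direction, beside 2.19% of all genes, and 2 in the opposite one. All 4 HN6 KD libraries were above both HN6 NC libraries for 330 (25.8%), beside 7.4% of all genes. Of the 1544 lower genes 1500 were tested, and 1133 (75.5%) had a negative fold change, beside 47.8% of all genes. Of these, 40 (2.67%) were DEGs in the same direction, beside 0.888% of all genes, and 416 (27.7%) had all 4 HN6 KD libraries below NC, beside 8.77%. The edgeR fit within HN6 gave 0 genes with an adjusted p under 0.05 and 779 with an unadjusted P under 0.05. The 108 rose most without HN6 NC replicate 1, which leaves 1 NC library. The share of all HN6 genes in that fit is not given here, so the rise is no measure of likeness between the lines. Genes are not independent of each other, so these shares are counts and carry no test.

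**Figure D5:**
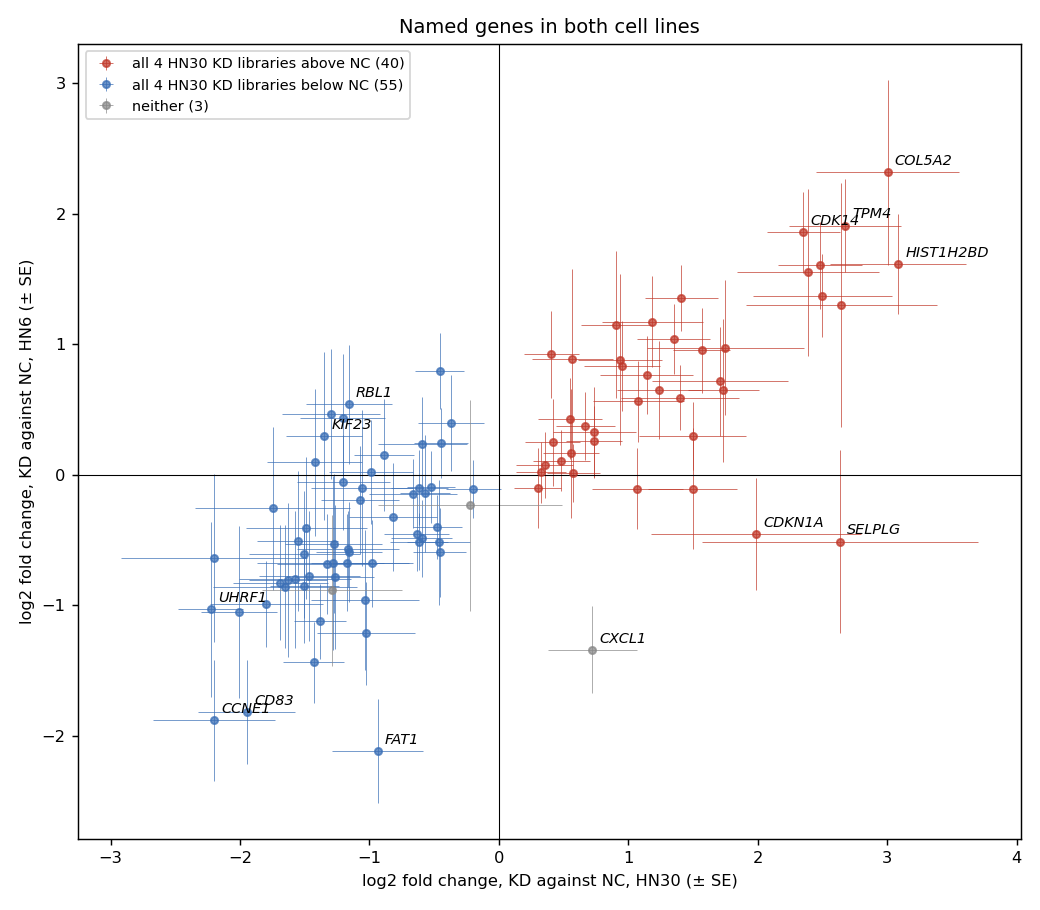
Log2 fold change of KD against NC in HN30 (horizontal) and HN6 (vertical) with SE bars for the 98 named genes that were tested in both lines; red and blue are genes with all 4 HN30 KD libraries above or below NC. Of 40 higher genes 35 are also above 0 in HN6, and of 55 lower genes 44 are also below 0, with CDKN1A and SELPLG among those of opposite sign; the qRT-PCR and interaction genes among the 98 were picked with HN6 in use, so these counts are a description.

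CD83, CCNE1, TPM4 and PERP are among the study's qRT-PCR genes, taken from both lines, so their values in HN6 are not independent of their choice. CD83 and CCNE1 were lower by similar amounts in both lines, at -1.95 and -2.20 in HN30 and -1.82 and -1.88 in HN6. TPM4, CDK14 and PERP were higher in both, at 2.67, 2.35 and 1.41 in HN30 and 1.91, 1.86 and 1.35 in HN6. The proliferation lists differed more in their values: the median fold change of the 251 genes was -0.87 in HN30 and -0.17 in HN6, and the medians of the 10 lists in HN6 ran from -0.59 for the MCM genes to 0.093 for kinetochore and centromere genes and 0.23 for homologous recombination and Fanconi genes, with 0 DEGs in each of these 3. The difference between the lines was tested as the interaction of cell line and KD over all 12 libraries. No gene passed: by edgeR's quasi-likelihood test 0 of 14360 had an adjusted p under 0.05, by DESeq2 also 0, and 317 had an unadjusted P under 0.05, of which 269 (1.87%) also had an absolute log2 difference above 1. CXCL1, a chemokine, was the gene with the smallest P (0.00137, adjusted p = 1.00 in edgeR), at a fold change of 0.72 in HN30 (0.29 without NC replicate 2 and 1.36 without NC replicate 1) and -1.34 in HN6. Nothing is therefore called particular to HN30 here, and with HN6 NC replicate 1 left out the genes past both thresholds went from 269 to 1469.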

How the data were processed

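The authors sequenced poly(A)-selected RNA and deposited whole-number counts of reads for each gene, with no normalization. The submitters' processing notes name hg38, HISAT2 and featureCounts. Versions, the annotation and whether strand was used are not given in the sources used here, so overlapping genes, antisense genes and near-identical histone genes are uncertain. Of 19225 entries 27 carried dates in place of symbols, and 0 columns were left out. Current names came from the RefSeq table, 18189 matched directly and 896 through an older symbol. The members and gene lists were chosen with earlier results of these data known.

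HN30 was fitted with the quasi-likelihood functions of edgeR 4.0.16 in R 4.3.3 after TMM scaling and filterByExpr (minimum count 10), and p-values were adjusted over all genes tested. Fold changes used a prior count of 0.125 and log2 CPM one of 2. Genes on one side were found on TMM-scaled log2 CPM. limma 3.58.1 (voom), DESeq2 1.42.0 and its size factors, no filter, 3 groups, all 12 libraries, a replicate block and leaving out each library were the alternatives. The fits were tested on simulated data. Figures used matplotlib 3.10.9 in Python 3.11.15.

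Genes were named by rule: FAT1, the study's 13 qRT-PCR genes, the 8 largest fold changes in each direction among genes on one side with P under 0.05 and a mean of at least 5 CPM, the 4 smallest P in each direction, up to 3 genes on one side per list, and the 3 smallest P for the siRNA difference and for the interaction. A replicate number marks a separate time in the labels and therefore pairs libraries. Across genes, libraries of one number correlated in their deviation from the group mean at -0.03 for NC and siFAT1-1, 0.42 for NC and siFAT1-2, and -0.02 for the 2 siRNAs. Replicates differed by more than counting noise in each group (chi-square per degree of freedom 14.5 to 154), and p-values measure the spread between these libraries.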

Additional observations from a re-analysis of the deposited data

Results flagged for a closer look

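In 5 of 103 named genes and 1 of 31 lists a single KD library stood far from the other 3, by Dixon's criterion for 4 values, which chance meets in about 1 of 20 groups. Of these, siFAT1-2 replicate 1 was the one apart for CDKN1A, at 4121 CPM, for CCNE1, at 7.55 CPM, and for the mean of the lysosome and autophagy list, at 0.50 on the log2 scale above NC. In the other 3, siFAT1-2 replicate 2 was apart and nearer to NC, with SKA3 at 21.0 CPM, EGFR at 989 CPM and ELOVL6, a fatty acid elongase gene, at 69.3 CPM. None was a siFAT1-1 library.

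PRRG4, a membrane protein gene, had all 4 KD libraries below NC in HN30 and all 4 above NC in HN6, and the log2 fold changes differed by -1.22 between the lines. It was among 29 genes on opposite sides in the lines. The interaction of cell line and KD had an adjusted p of 1.00 for it in edgeR.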

How the results depend on the processing

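Replicates differed by more than counting noise, and the part of sequencing depth was not tested. Over one library left out, DEGs in HN30 ran from 326 to 800 (higher 187 to 527, lower 139 to 449), calls at an adjusted p under 0.05 stayed at 0, the siRNA difference gave 1 to 2946 calls, and interaction genes past both thresholds ran from 178 to 1469. Genes on one side ran from 1568 to 3192 (higher) and 1741 to 3128 (lower), as fewer libraries have to be on one side, and of the higher genes 76 to 241 were DEGs in HN6. FAT1 ran from -1.18 to -0.77 on the log2 scale.

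At an adjusted p under 0.05 DESeq2 called 201 genes for KD against NC and 3568 for the siRNA difference, the 3-group fit called 44 and the fit on all 12 libraries 8 for KD against NC. The last 2 gave 460 and 466 lower DEGs. A gap of at least 0.5 left 213 higher and 181 lower genes. With the time as a replicate block (paired libraries) DEGs were 258 higher and 271 lower, calls at an adjusted p stayed at 0, the siRNA difference gave 2792, the interaction 226 past both thresholds, and FAT1 was at -0.94. KD libraries compared with the NC library of the same time gave 2002 higher and 2232 lower genes. The block took MPG, RELB, SELPLG and ZNF750 out of the DEGs, added DONSON, DTYMK and SPRR2D, and changed no other call of a named gene. limma-voom took out CDKN1A, RELB, SELPLG and ZNF750, DESeq2 CDKN1A, and the 12-library fit KIF2C.

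Fold changes in HN30 changed sign for NCAN (-0.51 in limma-voom, -0.38 in both the 3-group and the 12-library fit), for KIF26A (-0.82, -0.76 and -0.76 in the same fits, and -0.41 to 0.48 with one library left out, below 0 without either siFAT1-1 library) and for BTBD2 (-0.60 to 0.071, above 0 without either siFAT1-2 library). These 3 were named for the siRNA difference and the cause was not tested. Among named genes 64 of 618 values with one library left out no longer passed the DEG thresholds, and 10 of 721 under the other alternatives. List medians moved by more than the spread of the KD libraries in 9 of 186 and 2 of 217 values.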
